A study of Homo sapiens with 9 samples.

Results

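The regions described are peaks at the ends of 11 human chromosomes, 2, 3, 5, 8, 10, 11, 12, 14, 15, 20, and 21, in chromatin captured through the lncRNA SRA or with control probes. A peak was counted as an end peak when it lay within the first 3 Mb of the chromosome or within 3 Mb of the highest peak end found on that chromosome in any list. For chromosomes 14, 15, and 21 the long arm alone was counted, which gives 19 end windows, 8 on short arms and 11 on long arms, with a total length of 57 Mb. The rule took 614 of the 20698 peaks deposited for the series. These are 145, 154, and 152 peaks of SRA lists 1, 2, and 3, and 77, 76, and 10 peaks of LacZ lists 1, 2, and 3. The 8323 other peaks of the same chromosomes form the inner part, which spans 1382 Mb.

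All samples come from K562, an established human erythroleukemia cell line, without any further treatment named in the labels. In ChIRP, biotinylated oligonucleotides pull down an RNA together with the chromatin crosslinked to it, and 3 samples were made with probes against SRA. In 3 control samples the probes were directed against LacZ, a bacterial transcript that human cells lack, and 3 input samples had no probe and were not analysed here. The lists give for each peak a start and an end in hg19 and a MACS score, of which the lowest is 40, but no read counts, so the depth is unknown.

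SRA is a non-coding transcript known as a coactivator of steroid receptors, and it was reported to bind the insulator protein CTCF and histone methyltransferase complexes. A chromosome arm ends in telomeric repeats, next to which lie subtelomeric blocks that are often duplicated between chromosomes, and then DNA that on many arms is rich in genes and in CpG. Several ends counted here carry well known genes. The short arm of chromosome 5 ends near TERT, the catalytic subunit of telomerase, and SLC6A3, the dopamine transporter. The short arm of chromosome 11 ends with HRAS, a group of secreted mucin genes with long tandem repeats, and the imprinted pair IGF2 and H19, whose control region is a classical CTCF insulator. The end of the long arm of chromosome 3 holds TFRC, the transferrin receptor through which erythroid cells take up iron, and the mucin gene MUC4. The long arm of chromosome 20 ends with RTEL1, a helicase that protects telomeres, and that of chromosome 21 with the collagen genes COL6A1 and COL18A1. Which of these genes a peak overlaps was not analysed here, as the lists are in hg19 coordinates and an annotation and genome of that build were not used.

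The SRA lists do not vary as separate libraries do. At the ends, 85 pairs of peaks overlapped between SRA lists 1 and 2, 77 between lists 1 and 3, and 90 between lists 2 and 3, and all 252 pairs matched to the base in both start and end. The score was also identical in 76 of the 252 pairs (30.2%), against 674 of 3357 pairs (20.1%) in the inner part. The 3 SRA lists are therefore given side by side, but their spread is not taken as a replicate error. LacZ list 3 stands apart as well, since it holds 290 peaks in all and its end peaks had a median width of 1078 bp, against 150 and 145 bp in LacZ lists 1 and 2. The tests of density, width, and score below are given with and without it.

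Peaks were denser at the chromosome ends than in the inner part in all 6 lists. The SRA lists held 2.54, 2.70, and 2.67 peaks per Mb in the end windows and 1.43, 1.43, and 1.46 peaks per Mb in the inner part. The ratio of the densities was thus 1.78, 1.89, and 1.83 in SRA lists 1, 2, and 3. LacZ list 1 held 1.35 peaks per Mb at the ends and 0.827 in the inner part, a ratio of 1.63. LacZ list 2 gave 1.33 and 0.809 peaks per Mb, a ratio of 1.65. LacZ list 3, with only 10 end peaks, gave 0.175 and 0.068 peaks per Mb, a ratio of 2.58. The higher density was therefore present with both probe sets, and the SRA values lie between those of the LacZ lists.

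Expressed as a share, the end windows make up 3.96% of the length examined. They held 6.85% of the peaks of SRA list 1 on these chromosomes (95% Wilson interval 5.85 to 8.01%), 7.23% of list 2 (6.20 to 8.40%), and 7.0% of list 3 (6.0 to 8.15%). The share was 6.31% in LacZ list 1 (5.08 to 7.82%), 6.37% in LacZ list 2 (5.12 to 7.89%), and 9.62% in LacZ list 3 (5.31 to 16.8%). Each interval lies above the share of length, and those of the SRA lists overlap those of the LacZ lists. The intervals cover counting error only and treat peaks as independent, which neighbouring peaks are not.

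The comparison of the probe sets asks whether SRA capture concentrated at the ends more than control capture did. The mean ratio was 1.83 in the SRA lists and 1.95 ± 0.542 (SD, n = 3) in the LacZ lists. On the log2 scale the SRA mean was lower than the LacZ mean, with a difference of -0.06 (two-sided exact permutation test over the 6 lists, p = 1, where the smallest p possible is 0.1). Without LacZ list 3 the difference was 0.16 in favour of SRA, and each SRA ratio lay above those of LacZ lists 1 and 2 (exact permutation p = 0.2, the smallest that 3 lists against 2 can give). The sign of the difference thus depended on this 1 list. With the SRA lists counted as 1 sample, the exact permutation p with all LacZ lists was 1, where 0.5 is the smallest possible. In covered bases the end windows exceeded the inner part 1.89, 1.98, and 1.97 times in the SRA lists and 1.69, 1.58, and 2.64 times in the LacZ lists.

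**Figure D1:**
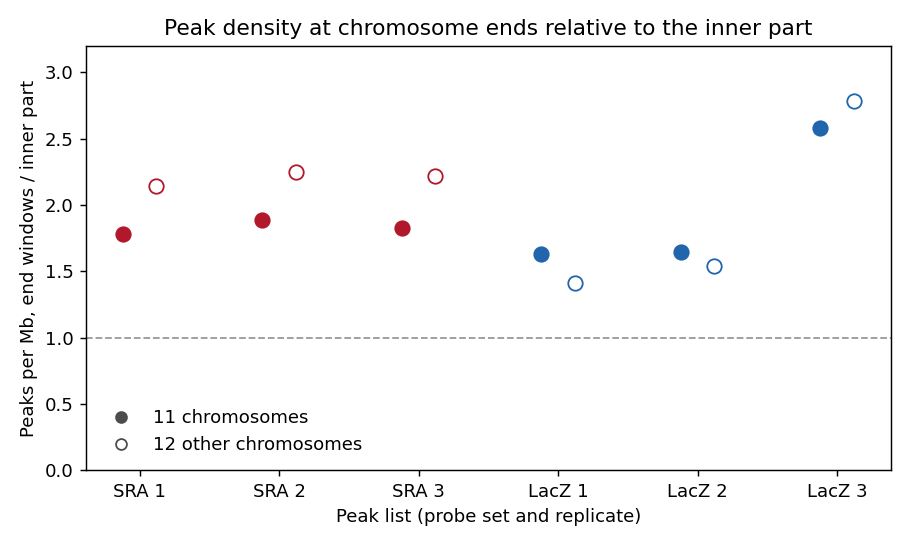
Ratio of peaks per Mb in the 3 Mb end windows to peaks per Mb in the inner part for each SRA list (red) and LacZ list (blue), for the 11 chromosomes (filled) and 12 other chromosomes (open), with a dashed line at equal density. All 6 filled points lie above 1, from 1.63 to 2.58, and the SRA points from 1.78 to 1.89 lie within the LacZ range.

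The 12 other chromosomes, 1, 4, 6, 7, 9, 13, 16, 17, 18, 19, 22, and X, were examined in the same way, with the long arm alone counted for chromosomes 13 and 22. Their ends also held more peaks than their inner parts, with ratios of 2.14, 2.25, and 2.22 in the SRA lists and 1.41, 1.54, and 2.79 in the LacZ lists. The end density itself was higher there, with 3.83, 3.94, and 4.18 SRA peaks per Mb against 2.54, 2.70, and 2.67 at the 11 chromosomes. With LacZ probes the ends of the 12 chromosomes held 1.33, 1.41, and 0.318 peaks per Mb in LacZ lists 1, 2, and 3, against 1.35, 1.33, and 0.175 at the 11 chromosomes. The difference between the 2 sets of chromosomes was not tested, and a high density at the ends is not particular to the 11 chromosomes.

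The SRA density was highest close to the end. In SRA lists 1, 2, and 3 there were 3.21, 3.21, and 3.32 peaks per Mb within 1 Mb of the end and 1.95, 2.0, and 2.0 peaks per Mb between 2 and 3 Mb. LacZ lists 1 and 2 fell in the same direction, from 1.58 and 1.84 peaks per Mb within 1 Mb to 1.11 and 1.16 between 2 and 3 Mb. LacZ list 3 did not, but it held 3 and 4 peaks in these bins. Beyond the limit of 3 Mb the SRA lists rose again, to 2.42, 2.05, and 2.68 peaks per Mb between 3 and 4 Mb, and then fell to 1.37, 1.26, and 1.21 between 4 and 5 Mb. LacZ list 1 held 0.842 and LacZ list 2 0.632 peaks per Mb between 3 and 4 Mb, against inner densities of 0.827 and 0.809. More than 20 Mb from an end the SRA lists held 1.36, 1.36, and 1.37 peaks per Mb.

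The SRA peaks on both sides of the limit of 3 Mb are given as a description. Between 2.5 and 3 Mb the SRA lists held 17, 18, and 17 peaks with median scores of 46.0, 45.2, and 46.4 and median widths of 176, 178.5, and 168 bp. Between 3 and 3.5 Mb they held 24, 17, and 24 peaks with median scores of 43.2, 44.1, and 43.2 and median widths of 146, 146, and 137 bp. The peaks just inside were thus wider than those just outside in each SRA list, but the 3 lists share peaks and are not separate observations. In LacZ list 1 the median widths were 152.5 bp inside and 133 bp outside, and in LacZ list 2 they were 145 and 145.5 bp. In LacZ lists 1 and 2 there were 10 and 9 peaks inside and 5 and 6 peaks outside, and LacZ list 3 had 2 inside and none outside.

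**Figure D2:**
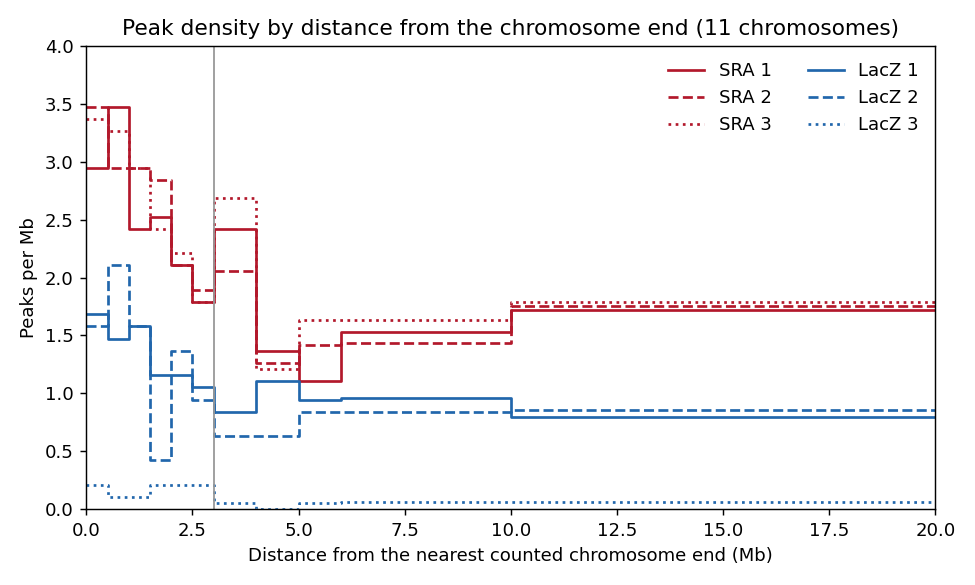
Peaks per Mb (vertical axis) against the distance in Mb from the nearest counted chromosome end (horizontal axis) for the 3 SRA lists (red) and 3 LacZ lists (blue), over 19 ends, with a grey line at 3 Mb. The SRA lines start between 2.95 and 3.47 in the first bin, reach 1.79 to 1.89 just inside the limit, and rise to between 2.05 and 2.68 in the bin from 3 to 4 Mb.

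The ends differed widely among themselves. Long arm ends held 3.24, 3.27, and 3.27 peaks per Mb in the SRA lists, and short arm ends 1.58, 1.92, and 1.83. In LacZ lists 1, 2, and 3 the long arm ends held 1.42, 1.55, and 0.242 and the short arm ends 1.25, 1.04, and 0.0833 peaks per Mb. The position of the highest peak sets where a long arm window lies, so each such window holds at least 1 peak by construction. An alternative added once the values were known leaves out that peak on every chromosome, and the mean SRA ratio of all ends was 1.78 and the mean LacZ ratio 1.93.

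Most SRA peaks lay in 8 of the 19 windows. When peaks of the same position in several SRA lists are counted once, the windows hold 255 distinct SRA positions, of which 209 (82.0%) lay in the 8 windows with at least 10 positions each. These are the long arm ends of chromosomes 3, 21, 20, 8, 12, and 5 and the short arm ends of chromosomes 5 and 11. They held 4.75, 5.21, and 5.17 peaks per Mb in the SRA lists, which is 3.33, 3.64, and 3.54 times the inner density. The 11 remaining windows held 0.939, 0.879, and 0.848 SRA peaks per Mb, which is 0.659, 0.614, and 0.581 times the inner density. The 8 windows were picked by their SRA positions, so these SRA values are a description.

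The LacZ lists were not used to pick the 8 windows. LacZ list 1 held 54 of its 77 end peaks there and LacZ list 2 held 45 of 76, at 2.25 and 1.88 peaks per Mb, or 2.72 and 2.32 times their inner density. In the 11 remaining windows LacZ lists 1 and 2 held 0.697 and 0.939 peaks per Mb, which is 0.843 and 1.16 times their inner density. LacZ list 3 had 9 of its 10 end peaks in the 8 windows. Over the 19 windows, peak numbers of an SRA list and of LacZ list 1 had a Pearson r of 0.79, 0.74, and 0.65 for SRA lists 1, 2, and 3, of 0.60, 0.49, and 0.41 with LacZ list 2, and of 0.60, 0.53, and 0.50 with LacZ list 3. The windows share the DNA of 1 cell line and differ in the genes and repeats they hold, so these values describe the lists and carry no p-value.

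The end of the long arm of chromosome 3 had the most SRA positions, with 35. It held 19, 16, and 20 peaks in the SRA lists and 9, 7, and 2 in the LacZ lists. Of the 35 positions, 13 lay between 2 and 2.5 Mb from the end, from 195424355 to 195872664 in hg19, and 9 of these 13 were in a single SRA list. The same stretch held 6, 4, and 1 peaks in LacZ lists 1, 2, and 3. It was therefore crowded with both probe sets.

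The end of the long arm of chromosome 21 held 34 SRA positions, and it was the only end counted on that chromosome. Its SRA lists held 19, 20, and 18 peaks, or 4.2, 4.18, and 3.28 times the density of the rest of the chromosome. In SRA lists 1 and 2 this was the highest ratio among the 11 chromosomes, and in SRA list 3 chromosome 5 was slightly above it with 3.34. LacZ lists 1 and 2 held 7 and 5 peaks there, 2.23 and 2.05 times the density of the rest. LacZ list 3 had 4 of its 5 chromosome 21 peaks in this window, which is also 4 of its 10 end peaks. With chromosome 21 left out, the log2 density difference between the probe sets was 0.08 in favour of SRA (exact permutation p = 0.1), the opposite sign to that with all chromosomes. This was the highest value when any single chromosome was left out. The lowest, without chromosome 20, was -0.17.

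The end of the long arm of chromosome 20 held 30 SRA positions, with 13, 15, and 21 peaks in the SRA lists and 3, 3, and 0 in the LacZ lists. As a share of all peaks of a list this is 0.261, 0.303, and 0.405% for SRA and 0.112, 0.115, and 0% for LacZ, where a count of 0 in LacZ list 3 allows up to 1.03%. It was the only 1 of the 19 end windows in which each SRA share was above each LacZ share. Among the 445 windows of 3 Mb along the 11 chromosomes with a peak in any list, 75 or 16.9% had that order. The reverse order, with each SRA share below each LacZ share, was found in none of the end windows and in 16 or 3.6% of the 445. LacZ list 3 had no peak in 13 of the 19 end windows, where the reverse order is not possible. Without LacZ list 3, the SRA shares were above in 2 end windows, the long arms of chromosomes 20 and 21, against a background of 89 or 20% of the 445. They were below in 4 end windows, the long arm of chromosome 2 and the short arms of chromosomes 3, 8, and 20, against a background of 82 or 18.4% of the 445. Within the last 0.5 Mb of chromosome 20, from 62435704 to 62872548, 12 SRA positions were found, and 9 of them were in a single list. LacZ list 1 had 1 peak in this stretch and LacZ lists 2 and 3 had none.

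At the end of the short arm of chromosome 5, near TERT, the SRA lists held 9, 16, and 17 peaks, against 5, 2, and 0 in the LacZ lists. As shares of each list these are 0.181, 0.323, and 0.328% for SRA and 0.187, 0.0764, and 0% for LacZ, so SRA list 1 lay just below LacZ list 1. The end of the long arm of chromosome 8 had 19, 22, and 15 peaks in the SRA lists and 9, 6, and 0 in the LacZ lists, and here the share of SRA list 3, 0.289%, lay below that of LacZ list 1, 0.336%. At the end of the short arm of chromosome 11, with the mucin genes and the IGF2 and H19 pair, 12, 13, and 12 peaks were found in the SRA lists and 11, 4, and 1 in the LacZ lists. As shares of each list these are 0.241, 0.263, and 0.231% for SRA and 0.411, 0.153, and 0.345% for LacZ, so the shares of both probe sets overlapped. The long arm end of chromosome 12 held 16, 12, and 14 SRA peaks and 6, 9, and 1 LacZ peaks. That of chromosome 5 held 7, 11, and 7 SRA peaks and 4, 9, and 1 LacZ peaks, so that LacZ list 2 was above SRA lists 1 and 3 in number.

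Other ends were sparse. The long arm of chromosome 2 had no SRA peak within its last 3 Mb in any list, which allows shares of up to 0.0602, 0.0607, and 0.0578% for SRA lists 1, 2, and 3. LacZ lists 1 and 2 each had 2 peaks there, 0.0747 and 0.0764% of their peaks, one of which sets the position of the window. The short arm of chromosome 8 and the long arm of chromosome 10 had 2 SRA positions each. At the short arm of chromosome 3 3, 1, and 0 peaks were found in the SRA lists and 5, 5, and 0 in the LacZ lists, and none of its 4 SRA positions was in more than 1 list. On chromosomes 2 and 10 the ends were less dense than the inner part in all SRA lists, with ratios of 0.351, 0.249, and 0.475 on chromosome 2 and 0.586, 0.582, and 0.458 on chromosome 10. On chromosome 15 the SRA ratios were also below 1, at 0.982, 0.541, and 0.676, with 1.12, 0.888, and 0 in the LacZ lists. LacZ list 2 had ratios of 1.10 and 1.18 on chromosomes 2 and 10, from 5 and 6 end peaks, and LacZ list 1 had 0.403 and 0.218, from 2 and 1. LacZ list 3 had no end peak on either.

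**Figure D3:**
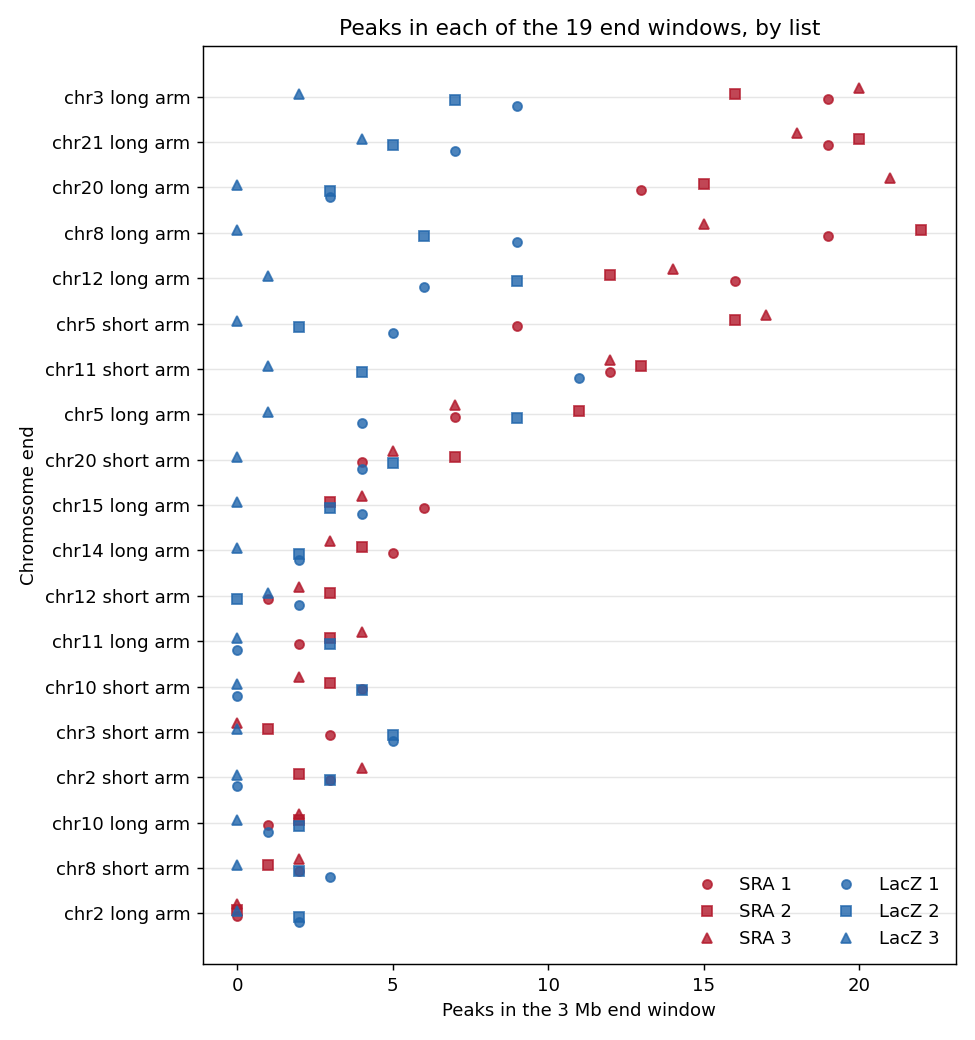
Number of peaks (horizontal axis) in each of the 19 end windows of 3 Mb (vertical axis, ordered by the number of distinct SRA positions) for SRA lists 1 to 3 (red) and LacZ lists 1 to 3 (blue), with a symbol for each replicate. The top 4 ends hold 13 to 22 peaks in every SRA list and 0 to 9 in the LacZ lists, and the long arm end of chromosome 2 holds none in the SRA lists.

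SRA positions recurred between the SRA lists at the ends with shares close to those of the inner part. Of the 255 distinct positions, 115 (45.1%) were in 1 list, 84 (32.9%) in 2 lists, and 56 (22%, 95% Wilson interval 17.3 to 27.4%) in all 3 lists. In the inner part 767 of 3378 positions (22.7%, 21.3 to 24.1%) were in all 3 lists. At the ends 139 positions were present in at least 2 SRA lists and free of LacZ peaks, or 54.5% of 255 (48.4 to 60.5%). Over all SRA positions of the series the same rule takes 4550 of 8658, or 52.6%, so the share at the ends is near that background. With LacZ peaks not used the count at the ends was 140, so it rests almost wholly on recurrence between the SRA lists. Because the lists share peaks, recurrence here does not measure agreement of separate samples. Among the densest ends, 13 of 35 positions passed the rule at the long arm of chromosome 3, 17 of 34 at that of chromosome 21, 14 of 30 at that of chromosome 20, and 19 of 29 at that of chromosome 8. At ends with 2 to 4 positions the count ran from none of 4 at the short arm of chromosome 3 to 4 of 4 at the short arm of chromosome 10 and the long arm of chromosome 11, and differences between ends were not tested.

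SRA positions were also closer together. At the ends 58 of 255 positions (22.7%, 95% Wilson interval 18 to 28.3%) had another SRA position within 10 kb, against 483 of 3378 (14.3%, 13.2 to 15.5%) in the inner part. The median gap between neighbours was 74.4 kb at the ends and 141 kb in the inner part. A denser region has shorter gaps, and the part of the density in these values was not tested. The long arm ends of chromosomes 3 and 20 gave 16 and 13 of the 58 positions.

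Peak scores at the ends were similar to those of the inner part. The median score was 44.1, 43.6, and 43.6 at the ends for SRA lists 1, 2, and 3, and 43.7, 43.6, and 43.8 in the inner part. It was 44.7, 45.2, and 43.8 at the ends for LacZ lists 1, 2, and 3, and 44.0, 44.1, and 45.3 in the inner part. The end minus inner difference averaged 0.0717 in the SRA lists and 0.132 ± 1.38 (SD, n = 3) in the LacZ lists (exact permutation test, two-sided, p = 1). Without LacZ list 3 the difference was -0.848, and each SRA value, 0.415, -0.005, and -0.195, lay below those of LacZ lists 1 and 2, 0.69 and 1.15 (exact permutation p = 0.2, again the smallest possible). Scores of at least 60 were reached by 7 of 145, 7 of 154, and 10 of 152 end peaks of the SRA lists, or 4.83, 4.55, and 6.58%. In the inner part the corresponding shares were 3.25, 3.24, and 2.28%. The 95% Wilson intervals overlap for SRA lists 1 and 2 but not for list 3, at 3.61 to 11.7% for the ends and 1.71 to 3.03% for the inner part, and the 3 lists share peaks. In LacZ lists 1, 2, and 3 such scores were reached by 7 of 77, 3 of 76, and 1 of 10 end peaks, or 9.09, 3.95, and 10%, against 3.76, 4.65, and 4.26% in the inner part. At the cut-off of 60 the end share was thus above the inner share in 5 of the 6 lists, with LacZ list 2 as the exception. At 50 the exception was LacZ list 3, with 20% against 20.2%. The intervals of SRA list 3 overlapped at the cut-offs of 50 and 80. At 50 its shares were 17.1% (11.9 to 23.9%) at the ends and 15.4% (13.8 to 16.99%) in the inner part. At 80 they were 0.658% (0.116 to 3.63%) and 0.297% (0.136 to 0.647%). The separation in SRA list 3 therefore depended on the cut-off.

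Peak width at the ends differed from that of the inner part by a few bases only. The median width was 157, 153.5, and 156.5 bp at the ends for the SRA lists, and 153, 153, and 154 bp in the inner part. For the LacZ lists it was 150, 145, and 1078 bp at the ends and 152, 153, and 1082.5 bp in the inner part. End peaks were thus 4, 0.5, and 2.5 bp wider in the SRA lists, and the end minus inner difference was -2, -8, and -4.5 bp in the LacZ lists. The means differed by 7.17 bp, and the SRA and LacZ values did not overlap (exact permutation test, two-sided, p = 0.1, the smallest p possible). This test takes the SRA lists as separate samples, and with them counted as 1 sample the exact permutation p was 0.5, which is then the smallest possible. Without LacZ list 3 the difference was 7.33 bp (exact permutation p = 0.2, the smallest that 3 against 2 lists allow). When peaks below the median score of each list were left out, it was -15 bp with all lists, where LacZ list 3 had 5 end peaks, and 5.33 bp without LacZ list 3. At the ends of the 12 other chromosomes the SRA lists gave end minus inner differences of -5, -5, and -7 bp. LacZ lists 1, 2, and 3 gave -8, -4, and -163.5 bp there, so both probe sets were below 0.

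The 10 strongest end regions that were in all 3 SRA lists and overlapped no LacZ peak lie on 6 chromosomes. They rank between 6 and 72 by mean score among the 821 such regions of the 11 chromosomes, of which 56 lie at the ends. The strongest, with a mean score of 73.5, lies at the end of the short arm of chromosome 5 in hg19 from 1333394 to 1333851, is 458 bp wide, and had scores of 86.9, 60.6, and 73.1 in SRA lists 1, 2, and 3. The next lies on the same arm from 1414498 to 1414653, with scores of 73.3, 73.3, and 55.0. Both are in the stretch of the short arm that carries TERT and SLC6A3.

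At the end of the long arm of chromosome 8, the region from 143272577 to 143272772 had scores of 69.2, 53.6, and 69.2. That from 145566637 to 145566889 had scores of 54.6, 57.1, and 76.9. On the long arm of chromosome 3, in the stretch crowded with peaks of both probe sets, the region from 195781639 to 195781928 is 290 bp wide and had scores of 54.0, 59.5, and 68.6. These regions had the same start and end in the 3 SRA lists, but not the same score in each. Of all 56 end regions shared by the 3 lists, 14 had an equal score in all 3.

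The short arm of chromosome 11 gave 3 of the 10 regions. That from 774364 to 774564 had scores of 60.3, 59.6, and 60.3, nearly equal in the 3 lists. That from 1827009 to 1827165 had scores of 41.7, 64.7, and 64.7, and that from 1017290 to 1017962, 673 bp wide, had scores of 64.8, 44.5, and 60.2. The last of the 10 lie on the long arms of chromosome 20, from 62834905 to 62835099 with scores of 53.1, 61.8, and 61.8, and of chromosome 21, from 47410374 to 47410492 with scores of 44.8, 58.9, and 69.1. SRA list 1 gave the lowest score in 5 of the 10 regions.

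**Figure D4:**
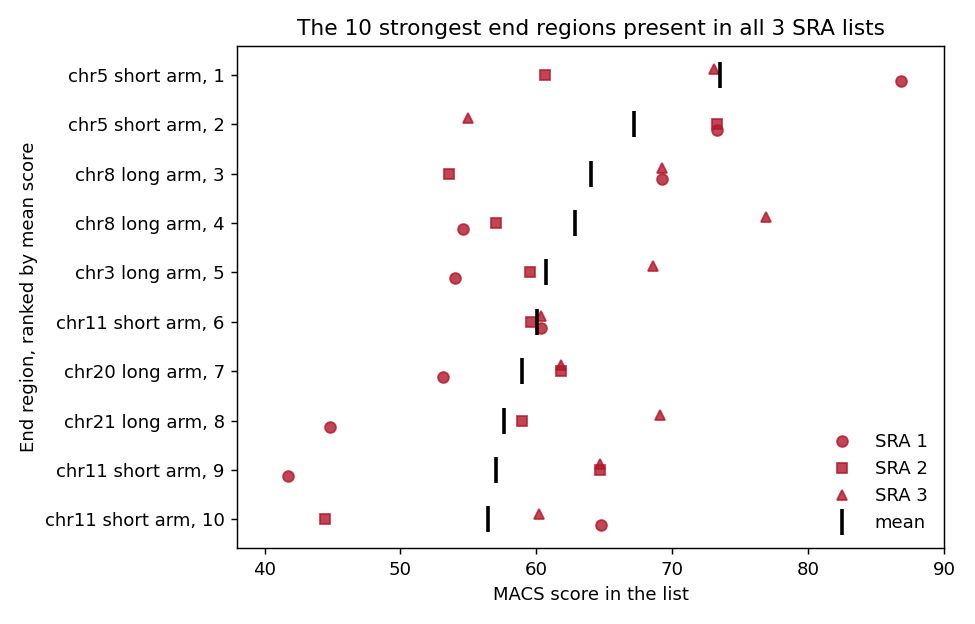
MACS score (horizontal axis, lowest possible value 40) in SRA lists 1, 2, and 3 (symbols) and their mean (black bar) for the 10 end regions ranked highest by mean score that every SRA list shared and that lacked a LacZ peak, named by chromosome arm and rank. The means run from 73.5 to 56.5, and the scores of single lists from 41.7 to 86.9.

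The highest SRA score at the ends belonged to a region outside this group. It is the last peak of chromosome 14, from 106049051 to 106049280, with scores of 66.8 and 107.6 in SRA lists 2 and 3 and no peak in list 1. On the long arm of chromosome 3 the region from 195344737 to 195344957 had a score of 77.8 in SRA list 1 and was in no other list. The widest SRA peak of the ends, 708 bp from 195424355 to 195425062 on the same arm, was in all 3 lists with scores of 43.2, 40.8, and 40.4. These 3 regions were named after their values were seen. In the 3 densest windows the outermost SRA peak was itself the last peak of the chromosome, which by the rule sets where the window lies. These 3 peaks were each in a single list. They are 197894826 to 197894947 on chromosome 3 (score 62), 47974026 to 47974192 on chromosome 21 (score 43.9), and 62872408 to 62872548 on chromosome 20 (score 40.8).

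One end position was among the strongest peaks of each LacZ list. On the long arm of chromosome 12, LacZ list 1 had a peak from 133022470 to 133022853 with a score of 181.7, its highest on the 11 chromosomes. LacZ list 2 had a peak from 133022512 to 133022830 with a score of 102.7, which ranks 3 in that list on these chromosomes, and LacZ list 3 one from 133022188 to 133023134 with a score of 80.5, its highest on the same chromosomes. No SRA peak overlapped any of them. It was the only end position with a peak in all 3 LacZ lists. The remaining peaks among the 5 strongest LacZ end peaks were in LacZ list 1, on the short arm of chromosome 8 from 1489821 to 1489906 with a score of 80.6 and on the long arm of chromosome 3 from 195453193 to 195453403 with a score of 75.9, and neither overlapped an SRA peak.

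Peaks of both probe sets met at 2 of the 255 SRA positions (0.784%, 95% Wilson interval 0.215 to 2.81%), against 14 of 3378 (0.414%, 0.247 to 0.695%) in the inner part. On the short arm of chromosome 11, the SRA region from 642644 to 642920 had scores of 51.7 and 45.6 in SRA lists 1 and 3 and overlapped a LacZ list 1 peak from 642658 to 642920 with a score of 57.0. On the long arm of chromosome 3, the region from 195487313 to 195487483 had a score of 48.2 in SRA list 3 and overlapped a LacZ list 1 peak from 195487319 to 195487497 with a score of 40.7. Ends that were crowded with both probe sets therefore held SRA and LacZ peaks mostly at different positions. Among the LacZ lists, 2 of 77 end peaks of list 1, 1 of 76 of list 2, and 2 of 10 of list 3 overlapped a peak of another LacZ list. In the inner part these were 31 of 1143 (2.71%), 29 of 1118 (2.59%), and 5 of 94 (5.32%).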

How the data were processed

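Chromatin of K562 cells was captured with SRA or LacZ probes, and 50 bp single-end reads were aligned by the authors to hg19. Per the submitters' processing notes CASAVA 1.8.2, deepTools, and MACS were used. The MACS version, its settings, and the control of each list are not given in the sources used here. The deposited score of each peak is headed −log10 of the p-value, but its lowest value is 40, which fits a p-value of 0.0001 on the MACS scale of 10 times −log10. Score differences between ends and inner part were taken within each list, and regions were ranked by the mean score of the SRA lists, whose depths are unknown.

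Groups were taken from the sample titles. End peaks were counted by position, density was the number of peaks per Mb, and the inner part of chromosomes 14, 15, and 21 starts at their first peak. Peaks sharing at least 1 bp overlapped. One value per list entered a two-sided exact permutation test of 3 SRA against 3 LacZ lists, with the smaller tail doubled, for which no p below 0.1 is possible, and shares carry 95% Wilson intervals. The methods describe biological triplicates. The regions named are the 10 strongest SRA end regions found in all SRA lists and no LacZ list, the 5 strongest LacZ end peaks, positions with both, the 3 densest and 3 sparsest windows, and the outermost SRA peak of the densest. The chromosomes, lists, and rules were chosen with earlier results of these data known. Alternatives were other window sizes, a neighbouring stretch as the inner part, a score filter, joined peaks, narrow peaks, lists or chromosomes left out, and pairing by replicate number. Counting was tested on simulated lists. Counts and tests were made with scipy 1.17.1, numpy 2.4.6, and pandas 2.3.3 under Python 3.11.15, and plots with matplotlib 3.10.9.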

Additional observations from a re-analysis of the deposited data

Results flagged for a closer look

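End peaks were wider than inner peaks in every SRA list, by 4, 0.5, and 2.5 bp in the median, whereas in every LacZ list the end minus inner difference was below 0, at -2, -8, and -4.5 bp. The values were noticed because the groups moved in opposite directions, and the difference of 7.17 bp had a two-sided exact permutation p of 0.1, the smallest that the design allows. With end windows of 1 Mb the SRA differences were 9, 0, and -0.5 bp, and with 5 Mb 1, -1, and -1 bp. At the ends of the 12 other chromosomes they were -5, -5, and -7 bp, against -8, -4, and -163.5 bp in the LacZ lists. The SRA minus LacZ difference there had an exact permutation p of 0.6.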

How the results depend on the processing

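The end to inner density ratio stayed above 1 for both probe sets under every alternative run. Its SRA mean of 1.83 became 2.22 with end windows of 1 Mb, 1.62 with 5 Mb, 1.57 against the stretch 3 to 6 Mb from the end, and 1.73 with the longest peak-free stretch of each chromosome left out of the length. The LacZ mean of 1.95 became 2.77 against the stretch 3 to 6 Mb from the end, where LacZ list 3 has 2 peaks, and 1.65 there without this list. When any single list was dropped, the SRA mean ran from 1.8 to 1.86 and the LacZ mean from 1.64 to 2.11. The log2 difference between the probe sets, -0.06, was reversed to 0.0695 with windows of 1 Mb, 0.144 with 5 Mb, and 0.0794 without chromosome 21, was -0.59 against the stretch 3 to 6 Mb from the end (-0.06 without LacZ list 3), and ran from -0.17 to 0.16 when any single list was dropped. The width difference of 7.17 bp was reversed to -15 bp with a filter that drops peaks under the median score of their list, and ran from 5.58 to 8.58 bp when any single list was dropped. It was 147.5 bp against the stretch 3 to 6 Mb from the end, 55.2 bp with windows of 1 Mb, 50.5 bp with 5 Mb, and 20.3 bp with peaks narrower than 1000 bp, all with an exact permutation p of 0.1. These 5 values rest on LacZ list 3, and without it they were 5.33 bp with the filter, 11.4 bp against the neighbouring stretch, 8.83 and 3.42 bp with windows of 1 and 5 Mb, and 7.33 bp with narrow peaks. Leaving out this list under another setting was added after the values were seen. The score difference of -0.06 was reversed to 0.0217 with windows of 5 Mb and 1.43 with the score filter, and ran from -0.848 to 0.449 when any single list was dropped, above 0 without SRA replicate 3, LacZ replicate 1, or LacZ replicate 2. Without LacZ list 3 it was -0.848, or -0.279 with windows of 5 Mb and 0.596 with the score filter. The cause of these changes was not tested.

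The 139 end positions in at least 2 SRA lists and no LacZ list became 56 with all 3 lists required, 253 with any, 59 with the score filter, and 56 with windows of 1 Mb, and ran from 76 to 140 when any single list was dropped. It was 90, 76, and 85 without SRA replicate 1, 2, and 3, since both remaining SRA lists were then required. The 1 window with every SRA share above every LacZ share became 3 with the score filter, and 2 with shares of the 11 chromosomes, with windows of 1 Mb, or with windows of 5 Mb. It ran from 1 to 4 when any single list was dropped, with 4 without LacZ replicate 2, 3 without SRA replicate 3 or LacZ replicate 1, and 2 without SRA replicate 1 or LacZ replicate 3, and the long arm end of chromosome 20 was among the windows each time. The difference in the share of positions found in all 3 SRA lists, -0.745 percentage points, became -6.49 with windows of 1 Mb and -1.60 with 5 Mb. Its sign turned with the score filter, to 1.23, and against the stretch 3 to 6 Mb from the end, to 2.32.

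Pairing the lists by replicate number, as a block, gave a log2 density difference of -0.06 (exact sign-flip permutation p = 1), a width difference of 7.17 bp (p = 0.25, the smallest that 3 pairs allow in an exact permutation test), and a score difference of -0.06 (exact permutation p = 1). Deviations of same-numbered lists over 445 windows correlated at -0.04, 0.04, and 0.04, all under the limit of 0.1. These values show no pairing by number, but with few peaks per window they cannot exclude it. No p in this design can pass 0.05, so these tests say nothing about stability. Depth is unknown, and the 10 end peaks of LacZ list 3 limit any comparison that rests on it.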
